A study of Mus musculus with 4 samples.

Results

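Imprinted growth genes are a small class of mammalian genes of which only the copy inherited from one parent is active, and many of them set growth before birth. The set described here comprised Mest, Nnat, Grb10, Peg3, Plagl1, Dlk1, H19, Meg3, Peg10 and Sgce, 10 in all. Each was represented by its probe set annotated to a single gene symbol, which gave 9 genes among 19938 measured, and H19 was not analysed here. The 9 genes had 1 such probe set each. RNA came from mouse tumour lines 365 and 167, 1 array per line and vector, 4 arrays in all. Both lines were Smarcb1 deficient and p53 null, had a C57BL6/SV129J background and came from soft tissue tumours. The 2 Smarcb1 arrays held cells of line 365 and of line 167 infected with the pMIG retrovirus carrying Smarcb1, and the 2 empty-vector arrays held the same lines infected with empty pMIG. RNA was taken 3 days after infection in every case. The age of the mice is not given in the labels. All 4 samples thus shared the p53 loss and a retroviral infection. The labels also tag the tumours MRT, an abbreviation they do not spell out. The labels describe no repeat cultures.

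Genomic imprinting is set by DNA methylation laid down differently in egg and sperm. It is kept at imprinting control regions after fertilisation, with the help of the zinc finger protein ZFP57, which binds methylated TGCCGC. Several imprinted genes lie in clusters in which a shared control region governs neighbours on opposite parental copies. Paternally expressed genes tend to promote growth before birth and maternally expressed genes tend to restrain it. Most of them are strongly expressed in fetal mesenchyme and are turned down after birth.

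The bases before the start sites are shown for the genes on which the comparisons below turn, and for Ddc, the neighbour of Grb10. Each window is the 250 bases upstream of a start in the RefSeq promoter table (build GRCm38.p6), written 5′ to 3′ on the strand of the gene. Capitals mark TGCCGC or its reverse complement GCGGCA, searched on both strands with overlaps counted. The Grb10 window (chr11:12037421-12037670, minus strand) belongs to the upstream of 2 starts in the table. The Ddc window (chr11:11898145-11898394, minus strand) is likewise that of the upstream start. The Dlk1 window is chr12:109452573-109452822 and the Meg3 window chr12:109540746-109540995, both on the plus strand. The Nnat window is chr2:157559828-157560077 and the Mest window chr6:30737800-30738049, also on the plus strand.
Grb10: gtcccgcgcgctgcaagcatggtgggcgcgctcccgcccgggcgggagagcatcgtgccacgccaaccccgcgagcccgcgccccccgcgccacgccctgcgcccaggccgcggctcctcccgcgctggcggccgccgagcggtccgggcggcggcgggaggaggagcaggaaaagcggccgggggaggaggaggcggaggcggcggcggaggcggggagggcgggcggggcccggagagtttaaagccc
Ddc: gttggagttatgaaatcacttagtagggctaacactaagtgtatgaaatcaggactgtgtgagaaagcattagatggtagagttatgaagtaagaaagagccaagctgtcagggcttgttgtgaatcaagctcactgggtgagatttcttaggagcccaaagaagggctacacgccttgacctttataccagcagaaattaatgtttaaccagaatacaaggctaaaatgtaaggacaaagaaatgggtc
Dlk1: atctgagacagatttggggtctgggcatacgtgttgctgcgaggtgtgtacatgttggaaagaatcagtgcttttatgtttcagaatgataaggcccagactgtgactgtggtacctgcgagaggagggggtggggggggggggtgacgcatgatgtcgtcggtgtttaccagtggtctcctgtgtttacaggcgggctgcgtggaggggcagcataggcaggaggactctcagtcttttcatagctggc
Meg3: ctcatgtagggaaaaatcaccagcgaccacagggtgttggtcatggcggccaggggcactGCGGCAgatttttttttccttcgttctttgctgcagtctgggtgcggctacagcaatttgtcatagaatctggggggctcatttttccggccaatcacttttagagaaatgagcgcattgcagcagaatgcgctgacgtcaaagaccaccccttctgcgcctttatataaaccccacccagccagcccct
Nnat: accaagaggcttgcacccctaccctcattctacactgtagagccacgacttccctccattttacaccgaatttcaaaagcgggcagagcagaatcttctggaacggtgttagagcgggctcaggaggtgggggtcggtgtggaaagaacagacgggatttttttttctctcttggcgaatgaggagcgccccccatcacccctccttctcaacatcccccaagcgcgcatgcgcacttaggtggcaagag
Mest: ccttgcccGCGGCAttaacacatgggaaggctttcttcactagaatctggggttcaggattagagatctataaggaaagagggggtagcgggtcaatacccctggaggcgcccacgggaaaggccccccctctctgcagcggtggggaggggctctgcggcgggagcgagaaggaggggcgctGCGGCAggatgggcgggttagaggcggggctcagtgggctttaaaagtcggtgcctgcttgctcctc

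The Grb10 window held 40 CpG sites, which placed it at percentile 98.8 of the 32851 windows in the table, whereas the Ddc window held 1. The other start of Grb10 had 8 CpG sites (percentile 58.3) and the other start of Ddc had 4 (percentile 41.1), so the contrast holds for these windows alone. The other windows shown held 8 (Dlk1), 10 (Meg3), 12 (Nnat) and 14 (Mest) CpG sites, against a median of 6 over the table. The motif occurred once in the Meg3 window and at 2 places in the Mest window, and not in the other 4 shown. The other Meg3 window in the table (chr12:109545148-109545397) held 0 motifs and 0 CpG sites (percentile 3.9). The most upstream Mest window (chr6:30733256-30733505) held 0 motifs and 7 CpG sites (percentile 55.3), so the motif holds for some starts of these genes alone. The 7 members with a promoter entry had 11 windows, of which 4 held the motif, against 8.68% of all windows in the table. They belonged to Mest, Meg3 and Plagl1, and the 2 of Mest overlap almost wholly and are not separate cases. Peg10, Sgce and H19 have no entry there. A match in these letters is a description and not a binding site.

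Smarcb1, a component of SWI/SNF chromatin remodellers, was read first as a check of the vector labels. Its log2 signal was 9.61 in line 365 and 7.83 in line 167 with the Smarcb1 virus, against 6.01 and 4.61 with the empty virus, a mean increase of 3.41 ± 0.20 (moderated SE, limma adjusted p = 0.0371). The p53 gene was not analysed here. Vim, the mesenchymal intermediate filament gene, lay between log2 13.27 and 13.53 on the 4 arrays. The mesenchymal receptor gene Pdgfrb was at 5.03 (Smarcb1) and 5.12 (empty) in line 365, against 9.36 and 8.95 in line 167, and the summed log2 signal of the 6 mesenchymal markers was 44.68 and 44.35 in line 365, against 57.73 and 50.87 in line 167. Of the 6, Pdgfrb and Col1a2 passed for the line in limma, at -4.08 and -2.14 (adjusted p = 0.00348 and 0.0491). The line difference of Col1a1 was -2.84 (adjusted p = 0.0559). Pdgfra (-0.25, adjusted p = 0.602), Thy1 (-0.36, 0.438) and Vim (-0.10, 0.550) did not follow, so the sum rests on Pdgfrb and the collagen genes. With Smarcb1, 4 of the 6 were at least 1.5-fold higher in line 167 (6.93% of tested genes) and 0 in line 365 (6.49%). In line 167, Col1a1, Col1a2, Thy1 and Pdgfra changed by 2.65, 1.74, 1.30 and 0.97, and Pdgfrb and Vim by 0.42 and -0.22. For the vector 0 of the 6 passed in limma (lowest adjusted p = 0.369, Thy1). The endothelial cadherin gene Cdh5 was at 8.29 and 9.06 in line 365, against 3.64 and 3.78 in line 167. The summed signal of the 5 endothelial markers was 24.34 and 25.13 in line 365, against 19.61 and 19.20 in line 167, with 2 of the 5 below log2 4.27 on all arrays. Nearly all of that gap was Cdh5, since Kdr, the other one tested, differed by 0.26 (limma adjusted p = 0.287), and Pecam1, Tek and Emcn stayed between 3.19 and 4.35. That level is the 30th percentile of the mean signal over genes, and genes with a lower mean were left out of the tests. In the leukocyte list Ptprc, the pan-leukocyte marker, lay between 3.66 and 4.06. Cd68, a lysosomal protein gene used as a macrophage marker, was at 8.18 and 8.69 with Smarcb1, against 9.95 and 9.32 with the empty vector (lines 365 and 167). Its mean difference of -1.21 ± 0.30 had a limma unadjusted p of 0.0106 and an adjusted p of 0.273. It was in the same direction as that of Nnat below, and its part in the Nnat result was not tested. Csf1r, on the same list, went the other way, by 0.46 and 0.10 in lines 365 and 167 (mean 0.28, limma adjusted p = 0.587). Cd3e had a mean difference of 0.012 (adjusted p = 0.986). In the neural list Tubb3 was higher with Smarcb1 by 2.35 and 1.74 (mean 2.04 ± 0.23, limma unadjusted p = 0.000388, adjusted p = 0.0865). The others measured on that list did not follow. Sox10, Gfap and Rbfox3 had mean differences of 0.031, 0.11 and 0.059 (adjusted p = 0.968, 0.814 and 0.901). The epithelial and skeletal muscle lists had 0 genes at an unadjusted p under 0.05 for the vector. The part of the marker differences between the lines in the line differences below was not tested. In such bulk RNA, fewer cells of a type and less RNA per cell cannot be told apart.

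With Smarcb1, Nnat was lower by about the same amount in both lines, but neither Nnat nor any other of the 9 genes passed the test over all genes. The limma fit with terms for line and vector called 0 members, and 2 members, both lower, had an unadjusted p under 0.05. Over the 13956 tested genes the shares called were 0.0645% higher and 0% lower at an adjusted p under 0.05, and 5.88% higher and 5.68% lower at the unadjusted threshold. With Smarcb1, 5 members were lower in both lines, 1 was higher in both and 3 went opposite ways, and over all tested genes these shares were 34.1%, 26.0% and 39.8%. The median change of the members was -0.14 in line 365 and -0.29 in line 167 on the log2 scale, against medians over all tested genes of -0.0059 and -0.055. In line 365, 1 member was at least 1.5-fold lower (4.75% of tested genes) and 1 at least 1.5-fold higher (6.49%). In line 167, 3 were at least 1.5-fold lower (7.8%) and 1 at least 1.5-fold higher (6.93%). Nnat was the 1 member that was 1.5-fold lower in both lines, as were 1.35% of tested genes. A change within 1 line rests on 2 arrays and has no test. An exact paired permutation test over the 2 lines could not go below p = 0.5.

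**Figure D1:**
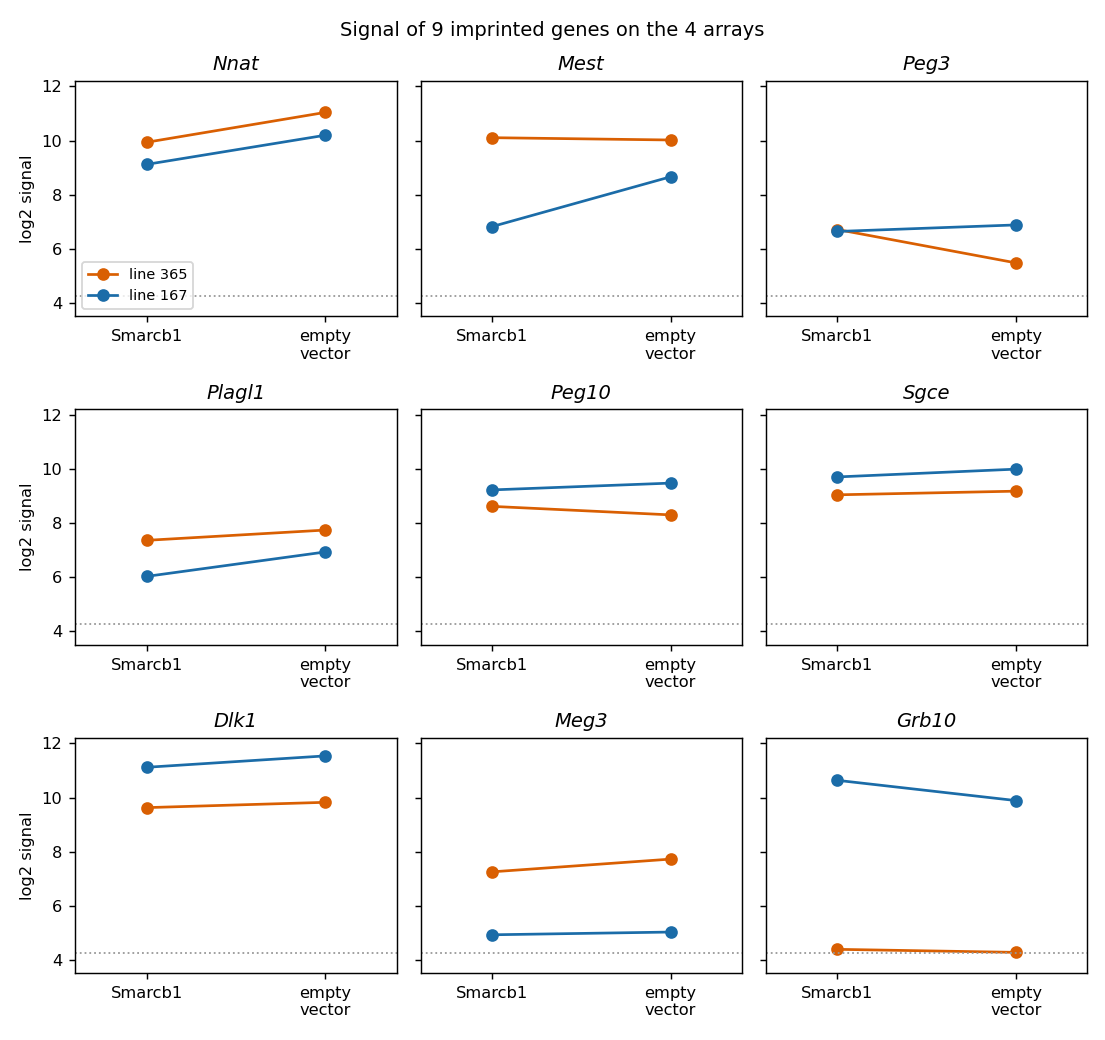
Log2 signal (vertical axis) of the 9 imprinted genes with Smarcb1 (left) and with the empty vector (right), 1 point per array, with line 365 in orange and line 167 in blue. The dotted line is the filter level of log2 4.27, at which Grb10 sits in line 365, and the Nnat lines run in parallel.

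Nnat, which encodes neuronatin, a small paternally expressed membrane protein of the endoplasmic reticulum, differed with Smarcb1 most evenly among the 9 genes. Its log2 signal was 9.94 (line 365) and 9.12 (line 167) with Smarcb1, against 11.04 and 10.20 with the empty vector. Both Smarcb1 values were below both empty-vector values. The changes were -1.10 in line 365 and -1.08 in line 167, and the mean change was -1.09 ± 0.12 (moderated SE), a level 2.13-fold lower. Limma gave an unadjusted p of 0.000311 and an adjusted p of 0.0846. The adjusted p was 0.0499 without the filter on dim genes and 0.0318 with the filter at the 50th percentile, and without the line in the model it was 1.00. Only 0.487% of tested genes had a mean change as low as that of Nnat or lower. The even size of the change in both lines is what the residual of this fit measures, so a small p and equal changes are not separate findings. Blcap, the gene in whose span Nnat lies on the opposite strand, was at 7.50 and 7.51 with Smarcb1, against 8.71 and 7.77 with the empty vector (lines 365 and 167). Its changes were -1.21 and -0.26 (limma adjusted p = 0.418).

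Among the other paternally expressed growth regulators, Mest and Plagl1 had their lowest signal in line 167 with Smarcb1. Mest, which encodes an endoplasmic reticulum protein of the hydrolase fold family, was at 10.11 with Smarcb1, against 10.02 with the empty vector, in line 365. In line 167 it was at 6.82 with Smarcb1, against 8.66 with the empty vector. The difference was 0.085 in line 365 and -1.84 in line 167, so the line 167 array with Smarcb1 was the low one of the 4. The mean change was -0.88 ± 0.46 (moderated SE, limma adjusted p = 0.542). Plagl1, a zinc finger transcription factor that can arrest the cell cycle and regulates other imprinted genes in mouse, was at 7.37 and 6.03 with Smarcb1, against 7.75 and 6.94 with the empty vector (lines 365 and 167). It was lower in each line, by -0.38 and -0.90, with a mean change of -0.64 ± 0.22 (moderated SE), limma unadjusted p = 0.0342 and adjusted p = 0.384. The vector groups overlapped, since the Smarcb1 array of line 365 stood above the empty-vector array of line 167. Peg3, a large zinc finger protein gene, was at 6.71 with Smarcb1, against 5.48 with the empty vector, in line 365. In line 167 it was at 6.64 with Smarcb1, against 6.88 with the empty vector. Its changes of 1.23 and -0.24 gave a mean of 0.50 ± 0.39 (limma adjusted p = 0.668).

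Peg10 and Sgce, divergent neighbours that are both paternally expressed, did not pass the test. Peg10, a gene derived from a retrotransposon and needed for the mouse placenta, was at 8.62 and 9.23 with Smarcb1, against 8.31 and 9.48 with the empty vector (lines 365 and 167). Sgce, which encodes epsilon-sarcoglycan of the dystrophin-associated complex, was at 9.05 and 9.71 with Smarcb1, against 9.18 and 10.00 with the empty vector. The changes in lines 365 and 167 were 0.32 and -0.25 for Peg10 and -0.14 and -0.29 for Sgce, with limma adjusted p of 0.964 and 0.595.

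Dlk1 and Meg3 are neighbours active on opposite parental copies. Dlk1, a paternally expressed membrane protein related to the Notch ligands, which holds back fat cell differentiation, was at 9.63 and 11.12 with Smarcb1, against 9.82 and 11.54 with the empty vector (lines 365 and 167). Meg3, a maternally expressed long noncoding RNA, was at 7.25 and 4.93 with Smarcb1, against 7.72 and 5.03 with the empty vector. In lines 365 and 167, Dlk1 differed with Smarcb1 by -0.20 and -0.42 (limma adjusted p = 0.439) and Meg3 by -0.47 and -0.10 (adjusted p = 0.638). Each was lower with Smarcb1 in each line, and for both genes the gap between the lines exceeded every change with Smarcb1.

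Grb10, a mostly maternally expressed adaptor that restrains insulin and insulin-like growth factor receptor signalling, was the 1 member higher with Smarcb1 in both lines. It was at 4.39 (line 365) and 10.63 (line 167) with Smarcb1, against 4.28 and 9.89 with the empty vector. The changes were 0.11 and 0.75, with a mean of 0.43 ± 0.23 (moderated SE, limma adjusted p = 0.543). Line 365 lay just above the filter level on both arrays, and no detection call is at hand for those values.

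**Figure D2:**
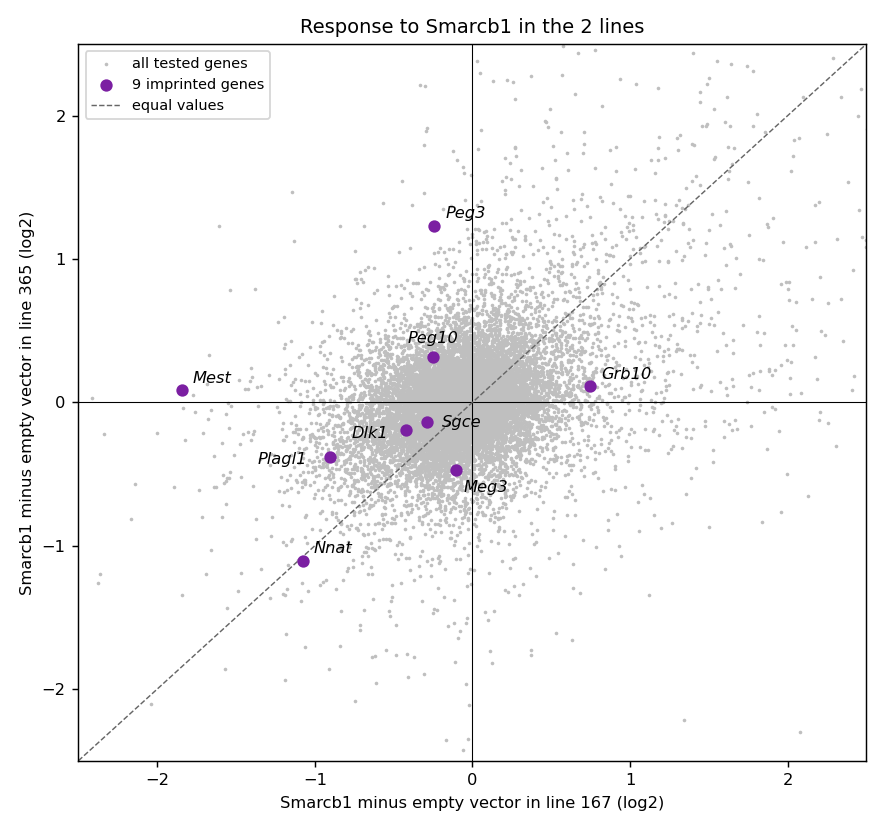
Change with Smarcb1 (log2, Smarcb1 minus empty vector) in line 167 on the horizontal axis and in line 365 on the vertical axis, for the 9 imprinted genes (purple) and the tested genes (grey, of which 130 lie outside the axes). Nnat sits on the dashed line of equal values at -1.08 and -1.10, while Mest is low in line 167 and Peg3 high in line 365.

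The lines differed far more than the vectors did. In the limma fit 4 members were higher in line 365 and 3 lower, so 7 of the 9 were called, against 10.9% of tested genes (5.31% higher and 5.64% lower). The median absolute line difference was 1.07 for the members and 0.28 for all tested genes. Since the 9 genes were chosen with results of these arrays known, their share of calls is a description. Without the vector term in the model 3 of the 9 were called, namely Grb10, Dlk1 and Meg3, and these 3 also passed under every other setting tried.

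Grb10 had the largest difference. Its 4.39 and 4.28 in line 365, against 10.63 and 9.89 in line 167 (Smarcb1 and empty vector), gave a line difference of -5.93 ± 0.23 (moderated SE, limma adjusted p = 0.00231). On the signal scale line 167 was 60.8-fold higher, a size that is uncertain because line 365 was near the filter level. The absolute difference exceeded that of 99.9% of tested genes. Meg3 was higher in line 365 by 2.51 ± 0.21 (adjusted p = 0.00735), or 5.70-fold, and its line 167 values of 4.93 and 5.03 were dim. Dlk1, its neighbour, went the other way, at -1.60 ± 0.12 (adjusted p = 0.00602), or 3.04-fold higher in line 167. For each of these 3 genes the arrays of one line stood apart from those of the other, whichever vector they carried. The same held for Mest, Plagl1, Sgce and Peg10, while the lines overlapped for Nnat and Peg3.

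The remaining members differed less. Mest was higher in line 365 by 2.32 ± 0.46 (limma adjusted p = 0.0468). Its difference was 3.29 between the Smarcb1 arrays and 1.36 between the empty-vector arrays. Plagl1 was higher by 1.07 ± 0.22 (adjusted p = 0.0483) and Nnat by 0.83 ± 0.12 (adjusted p = 0.0228). Sgce was lower in line 365 by -0.74 ± 0.13 (adjusted p = 0.0383), and Peg10 did not pass, at -0.89 ± 0.19 (adjusted p = 0.0534), though it passed after quantile normalization (0.0343), cyclic loess (0.0352) or a stricter filter (0.0320). The calls of Mest (0.0613) and Sgce (0.0615) ended without the intensity trend. Peg3 did not pass, with -0.67 ± 0.39 (adjusted p = 0.321), and its difference was 0.071 between Smarcb1 arrays and -1.40 between empty-vector arrays.

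**Figure D3:**
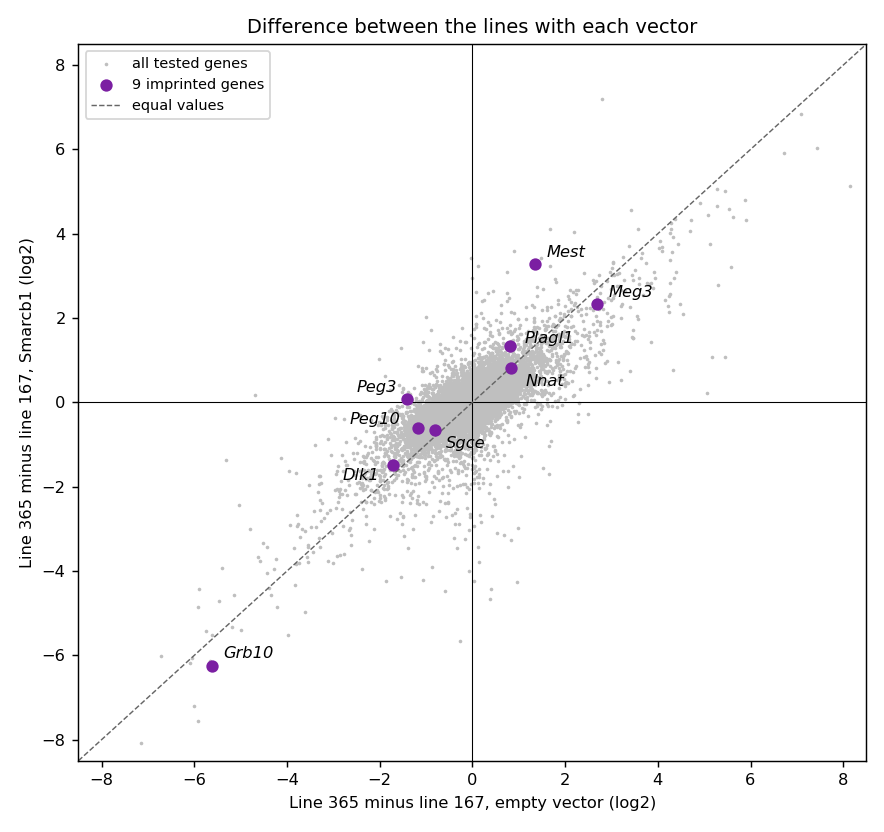
Line 365 minus line 167 (log2) between the empty-vector arrays on the horizontal axis and between the Smarcb1 arrays on the vertical axis, for the 9 imprinted genes (purple) and all tested genes (grey). Grb10 sits at -5.61 and -6.24, and Mest lies above the dashed line of equal values at 1.36 and 3.29.

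Neighbours within the imprinted domains were read from lists written for this purpose. Ddc, the gene next to Grb10, which encodes the decarboxylase that makes dopamine and serotonin and is itself imprinted in mouse heart, differed in the same direction. It was at 5.01 and 4.57 in line 365, against 9.85 and 10.50 in line 167 (Smarcb1 and empty vector). Its line difference was -5.39 ± 0.30 (moderated SE, limma adjusted p = 0.00369). Cobl, on the other side of Grb10, differed by -0.028 (adjusted p = 0.937), and Fignl1, the next measured gene beyond Ddc, by -0.72 (adjusted p = 0.122). Ikzf1, beyond Fignl1, differed by -1.69 (adjusted p = 0.0732). Egfr, the third measured gene beyond Grb10 on the Cobl side, differed by -0.21 (adjusted p = 0.328). Fignl1, Ikzf1 and Egfr were looked up after the values of Ddc were seen.

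In the Dlk1 domain Begain, the next measured gene before Dlk1, was lower in line 365, at -1.38 ± 0.25 (limma adjusted p = 0.0381). Of the next genes on that side, Wdr25 differed by -0.038 (adjusted p = 0.913) and Wars passed in the opposite direction to Dlk1, with a difference of 1.33 (adjusted p = 0.0178), and both were picked after their values were seen. Rtl1, a paternally expressed gene of retrotransposon origin beyond Meg3, differed by 0.092 (adjusted p = 0.751). The noncoding Rian was at 3.56 and 3.99 in line 365, against 3.27 and 3.13 in line 167, below the filter. Between Meg3 and Dio3 the array held probe sets for 40 microRNA genes, which were picked out after the Meg3 values were seen. Of these 14 passed the filter, and their line differences ran from -0.16 to 0.32 with a median of 0.17. In limma 0 of the 14 passed for the line and 0 for the vector, and 0 had an unadjusted p under 0.05 for either. With both vectors 22 of the 40 were higher in line 365, of which 7 were among the 14 past the filter and 15 among the 26 below it, against 34.9% of all tested genes and 31.5% of all measured genes. Probe sets for hairpin precursors do not measure the mature microRNA.

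**Figure D4:**
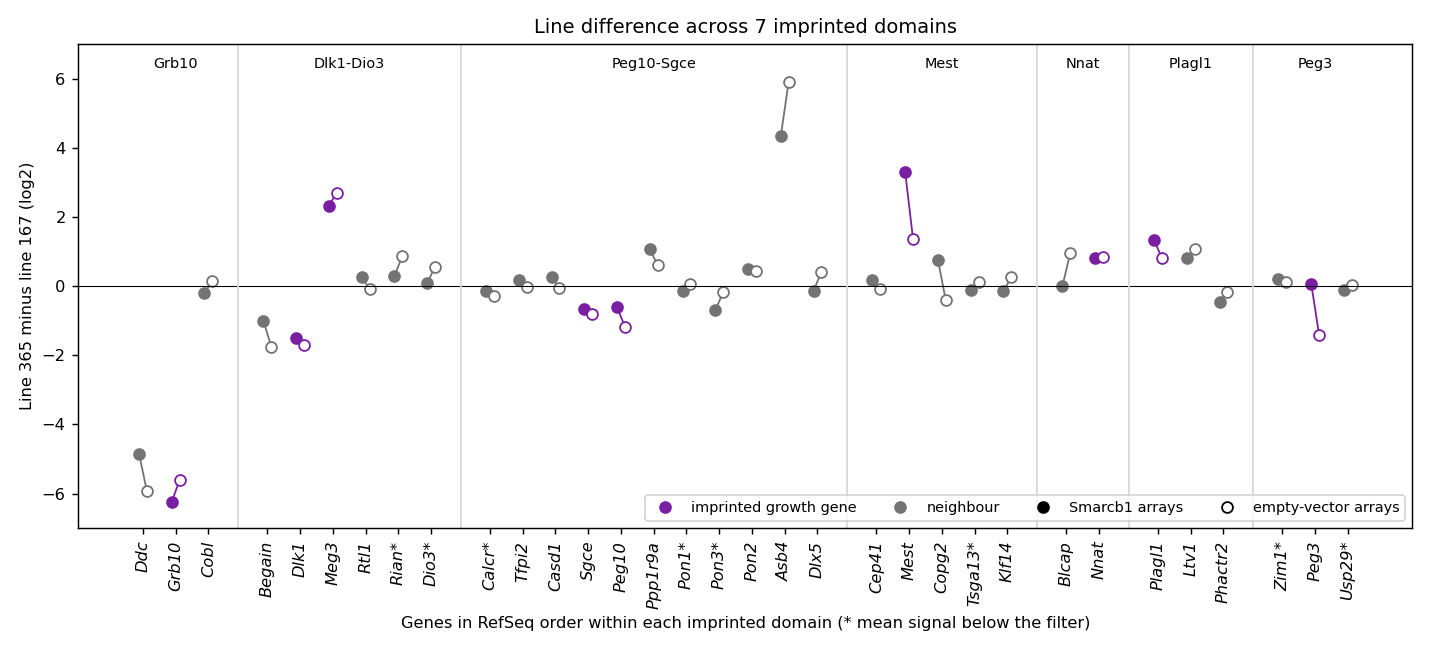
Line 365 minus line 167 (log2, vertical axis) for the members (purple) and their listed neighbours (grey) in RefSeq order, with filled points for the Smarcb1 arrays and open points for the empty-vector arrays. Ddc and Grb10 fall together near -5 to -6 while Cobl is near 0, Dlk1 and Meg3 point opposite ways, and Asb4 stands alone above the Peg10-Sgce domain.

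In the Peg10-Sgce domain Asb4, an ankyrin repeat gene that is imprinted in mouse, was at 8.65 and 9.73 in line 365, against 4.31 and 3.83 in line 167. The line difference was 5.12 ± 0.41 (moderated SE, limma adjusted p = 0.00678), opposite in sign to Peg10 and Sgce. The 5 other listed neighbours tested there did not pass, and Ppp1r9a came closest at 0.83 (adjusted p = 0.0768). Col1a2, the mesenchymal marker above, is the second measured gene from Sgce, beyond Casd1, a position looked up after its values were seen. The Col1a2 difference of -2.14 has the sign of those of Sgce and Peg10. Casd1, which lies between, differed by 0.10 (adjusted p = 0.767), and Bet1, the next measured gene beyond Col1a2, by -0.15 (adjusted p = 0.649). Of the neighbours of Mest, Copg2 overlaps it on the other strand, and its line difference was 0.17 (adjusted p = 0.758). Beside Plagl1, Ltv1, a ribosome assembly gene, was higher in line 365 by 0.94 ± 0.18 (adjusted p = 0.0414). Igf2, the fetal growth factor gene next to H19, was at 5.09 and 5.77 with Smarcb1, against 5.68 and 6.63 with the empty vector (lines 365 and 167). Its mean change with Smarcb1 was -0.73 ± 0.19 (unadjusted p = 0.0134, adjusted p = 0.291).

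Across 71 further imprinted genes and neighbours, 60 were measured and 48 tested. For the vector 0 passed in the limma fit, with 3 higher and 4 lower at an unadjusted p under 0.05. The median absolute line difference was 0.28, the same to 2 decimals as over all tested genes. For the line 4 were higher in line 365 and 5 lower, a share of 18.8%, against 10.9% of all tested genes. The lists were written with results of these arrays known and include neighbours of the members, so this share is a description. Apart from those named above, the genes called for the line were Gatm, Slc38a4, Rasgrf1, Igf2r and Cd81. Gatm, which encodes the first enzyme of creatine synthesis, was at 8.13 and 9.22 in line 365, against 4.06 and 4.53 in line 167, a difference of 4.38 ± 0.24 (limma adjusted p = 0.00348). Rasgrf1, an activator of Ras, was at 3.78 and 4.15 in line 365, against 7.60 and 7.95 in line 167, a difference of -3.81 ± 0.18 (adjusted p = 0.00296). Both line 365 values of Rasgrf1, and 1 of the line 167 values of each of Gatm, Asb4 and Slc38a4, were below log2 4.27, so the sizes of these differences are uncertain. Igf2r, the maternally expressed receptor that clears Igf2, differed by -0.96, the amino acid transporter gene Slc38a4 by 0.77 and the tetraspanin gene Cd81 by -0.72. Cd81 was higher with Smarcb1 by 0.84 ± 0.13 and did not pass (adjusted p = 0.138), and the cholesterol synthesis gene Dhcr7 differed by -0.76 ± 0.16 (adjusted p = 0.217).

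Genes that set or keep imprints were read next. Of 22 listed, 21 were measured and 19 tested, 0 passed for the vector and 1 for the line, and 0 had an unadjusted p under 0.05 for the vector in limma. The 1 called for the line was a share of 5.26%, against 10.9% of all tested genes, so the list does not stand out. It was Zfp57, at 9.18 and 9.25 in line 365, against 8.40 and 8.34 in line 167 (0.84 ± 0.15, adjusted p = 0.0353). Its part in the line differences of the members was not tested. The maintenance methyltransferase gene Dnmt1 differed with Smarcb1 by -0.089 in line 365 and 0.092 in line 167. Eed had the largest mean change among the tested genes of this list, at -0.41 (limma adjusted p = 0.486). Its changes were -0.59 in line 365 and -0.22 in line 167.

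The partners of the encoded proteins were read in the same fit. Of the 7 tested partners of Grb10 0 passed for either comparison, and the receptor substrate gene Irs1 had log2 signals of 8.56 and 7.78 with Smarcb1, against 7.27 and 6.77 with the empty vector (lines 365 and 167). Its differences were 1.29 and 1.01, with a limma unadjusted p of 0.00174 and an adjusted p of 0.138. Of the 7 Notch receptor and ligand genes listed beside Dlk1, 1 passed for the line, Notch2, which was higher in line 365 by 1.47 ± 0.14 (adjusted p = 0.0100). Of the 4 tested genes listed beside Sgce, 1 passed, the sarcospan gene Sspn, with a line difference of -2.06 ± 0.20 (adjusted p = 0.0101). Of the 3 tested calcium pump genes and regulators listed beside Nnat, 1 passed, the pump gene Atp2a2, with a line difference of 0.88 ± 0.13 (adjusted p = 0.0261). Over all tested genes 10.9% passed for the line. A single call on lists this small is therefore no result about the partners as a set.

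For each member the 5 tested genes with the nearest profile were found as the smallest Euclidean distance between log2 values centred over the 4 arrays. The genes nearest to Grb10 were Col5a2 (distance 0.11), Ptn (0.47), Col12a1 (0.68), Col3a1 (0.75) and Aspn (0.76). Of these Col5a2, Col12a1 and Col3a1 encode collagens, Ptn the growth factor pleiotrophin and Aspn the matrix protein asporin. Pdgfrb and Col1a2 were likewise lower in line 365, and the part of that difference in these profiles was not tested. Nearest to Nnat were Tlcd3b (0.15), Mettl18 (0.17), Gfod1 (0.27), Galnt7 (0.30) and Cystm1 (0.30), and nearest to Mest were Tbx20 (0.54), Nptx1 (0.70), Elovl7 (0.76), Arhgap18 (0.88) and Msln (0.94). Nearest to Meg3 were Chst11 (0.14), Gm14137 (0.15), Txnrd1 (0.29), Ano1 (0.31) and Fosl1 (0.34). Among 13956 genes on 4 arrays, near profiles occur for any gene with modest differences, as for Sgce, whose nearest gene, Rida, was 0.018 away.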

How the data were processed

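Log2 probe set signals of 4 arrays were used as the authors deposited them. Per the submitters' processing notes, Affymetrix Expression Console produced them by RMA. Software versions and the genome build: not given in the sources used here. Gene symbols came from the platform annotation, which gives 1 symbol for 21789 of 35556 probe sets, several for 1621 and does not list 12146. The probe set of highest mean stood for a gene (19938 genes), and 13956 of them, with a mean signal of at least the 30th percentile (log2 4.27), entered the tests. The model held line and vector (limma 3.58.1, R 4.3.3, lmFit and eBayes with an intensity trend), with two-sided p-values adjusted by Benjamini-Hochberg over all tested genes and a threshold of 0.05. Arrays are paired by cell line, and arrays of a line deviated together from their vector means (r = 0.770 across genes). One line's response minus the other's is the single residual degree of freedom. The moderated variance adds 3.75 prior degrees of freedom drawn from all tested genes. The p-values thus do not measure a spread between repeat cultures, and the number of arrays limits the precision. SEs are moderated across genes. The fit was tested on simulated data. The members and lists were chosen with earlier results of these data known. Named genes include all members, list genes past a test and some of the largest differences per list. Others, such as Dnmt1, Vim, untested markers, domain neighbours, flanking genes and nearest profiles, were named outside that rule. Some listed genes are not analysed here. Promoter sequences are from RefSeq.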

Additional observations from a re-analysis of the deposited data

Results flagged for a closer look

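Of the 9 members, 3 differed in opposite directions with Smarcb1 in the 2 lines, as did 39.8% of all tested genes, so their number is not above the background. The difference between the responses was not tested, since each line has 1 array per vector, and no explanation is weighed here. Mest differed by 0.085 in line 365 and -1.84 in line 167, a difference of 1.93 on the log2 scale. Peg3 differed by 1.23 and -0.24, a difference of 1.47, and Peg10 by 0.32 and -0.25, a difference of 0.57. Among tested domain neighbours whose responses differed by at least 1 on the log2 scale, Copg2 gave 0.67 and -0.49, a difference of 1.17. Ddc gave 0.43 and -0.65, a difference of 1.09, with line 365 near the filter level. Asb4 gave -1.08 and 0.49, a difference of -1.57, with line 167 near that level.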

How the results depend on the processing

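The count of genes past the limma test for Smarcb1 against empty vector was 9, and it was 68 without the filter, 101 with a 50th-percentile filter, 103 at a threshold of 0.10, 49 with cyclic loess and 48 with quantile normalization. Without the cell line as a block it was 0, with 450 genes at an unadjusted p under 0.05. Members past that test numbered 0, and 1 (Nnat) without the filter, with the stricter filter or at 0.10. For the line difference 1528 genes passed, 653 without the vector term and 2915 at 0.10, and members past it fell to 3, against 7, without the vector term. Nnat (adjusted p = 0.394), Mest (0.108), Plagl1 (0.168) and Sgce (0.0794) lost the line call there, and the cause was not tested. In the vector comparison 0 members passed with or without the line block, so there was no call to lose. Without the intensity trend, Mest and Sgce also lost the line call. Leaving out a line gives the value of the other, from -1.84 to 0.085 for Mest, -0.25 to 0.32 for Peg10 and -0.24 to 1.23 for Peg3. The line difference of Peg3 reversed to 0.071 between Smarcb1 arrays alone. Of 126 member values under an alternative with a test, 115 kept direction and side of the threshold, and of 36 without a test 32 kept direction.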
